A study of Mus musculus with 15 samples.

Results

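The comparison described here is between mouse livers that expressed LbNOX and livers that expressed luciferase, all taken 6 h after an ethanol gavage. Its members are 6 of the 15 libraries of the series, chosen by the group names in the header of the deposited table: 3 of LbNOX with ethanol (M13, M14 and M15) and 3 of luciferase with ethanol (M10, M11 and M12). Genes with a normalized count of 10 or more in at least 3 of the 15 columns were tested, which kept 13570 of the 16330 genes listed. LbNOX is a water-forming NADH oxidase from a bacterium, and luciferase, a light-producing enzyme, served as the control construct. Both groups of this comparison received ethanol; 5 luciferase and 4 LbNOX libraries after a water gavage (M1 to M5 and M6 to M9) complete the series and are used as the background for the construct itself. Strain, sex, age, the way the constructs were delivered and the promoter that drives them are not given in the sources used here. A ChREBP genotype is mentioned beside wild type in the series design, whereas titles and header name constructs alone; the latter were followed, and the ChREBP genotype of the mice is not settled. Nothing in the labels ties each library to its own animal, so p-values measure only the spread between these samples, which may be technical.

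The liver oxidises ethanol with alcohol and aldehyde dehydrogenases, and each step passes electrons to NAD+ and makes NADH. A high ratio of NADH to NAD+ is called reductive stress, and an oxidase such as LbNOX lowers that ratio without making ATP. ChREBP, encoded by Mlxipl, is a transcription factor that responds to sugar phosphates and, paired with its partner Mlx, binds carbohydrate response elements near genes of glycolysis, fructose use and fatty acid synthesis. The comparison asks which part of the liver transcriptome after ethanol differs when LbNOX is present.

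Whole reads recovered from the values summed to 12.2 to 14.4 M per library with luciferase and ethanol, and to 10.6 to 15.7 M with LbNOX and ethanol. On the first principal component of the log2 values, which held 18.3% of the variance, the LbNOX ethanol library M15 (-50.2) lay beside the water libraries M3 (-57.8) and M8 (-50.7), away from M13 (-20.5) and M14 (0.25). The luciferase ethanol libraries lay between 37.1 and 54.8. Hepatocyte markers such as Alb and Apoa1 were abundant in all 6 libraries, with none at 0, so the labelled tissue matched its markers; limma, edgeR and DESeq2 called 0 of the 10, and 0 had an unadjusted p below 0.05. Construct mRNA was not analysed here.

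After ethanol, LbNOX livers had lower mRNA of enzymes that turn sugar into fat and of ChREBP targets, and higher Cyp7a1, Usp20, Otud1 and several interferon-inducible genes. In all, 822 of 13570 genes (6.06%) passed at a Benjamini-Hochberg adjusted p below 0.05 in limma, 304 higher (2.24%) and 518 lower (3.82%) in LbNOX. Of these, 430 differed by more than 2-fold (3.17%), 159 higher (1.17%) and 271 lower (2%). The median log2 difference over all genes tested was 0.0036. All values of LbNOX lay above all of luciferase in 1919 genes (14.1%) and below them in 2093 (15.4%). The count of called genes depended on single libraries: it was 316 without M10, 355 without M12, 400 without M13 and 320 without M15, and 235 called genes, 58 higher and 177 lower, were called in each of the 15 fits that left out 1 library. Higher genes numbered 105, 200, 118, 103 and 92 without M10, M11, M12, M13 and M15, and lower genes 211, 237, 297 and 228 without M10, M12, M13 and M15.

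**Figure D1:**
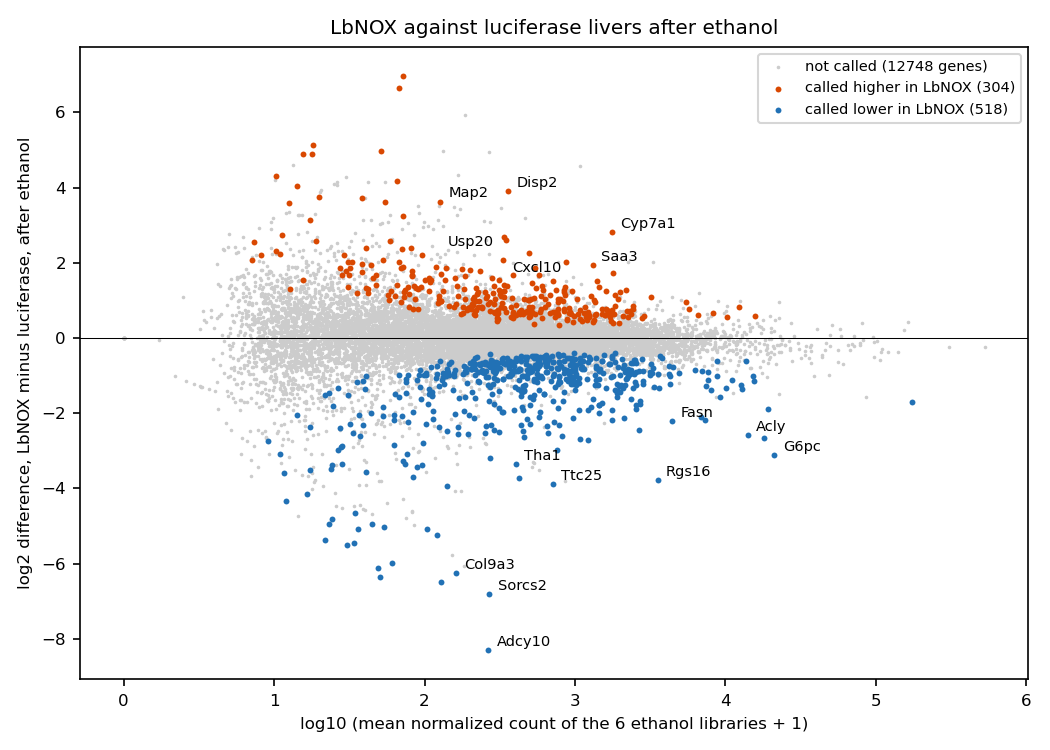
Log2 difference between LbNOX and luciferase livers after ethanol (vertical axis) against log10 of the mean normalized count plus 1 over the 6 ethanol libraries (horizontal axis); each point is a gene, orange for the 304 called higher, blue for the 518 called lower. Adcy10 and Sorcs2 lie lowest, and G6pc and Acly combine a high level with a value below -1.

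The same constructs after water, on libraries that share nothing with the ethanol groups, gave 0 called genes by limma, with 440 at an unadjusted p below 0.05, 0 by edgeR and 18 by DESeq2. The 518 genes called lower after ethanol had a median of -1.02 there and 0.03 after water, and the 304 called higher had 1.03 and 0.04. Both sets were picked by their ethanol values, which fixes the sign of the ethanol medians, so the gap to water is not a test. The difference between both construct effects was tested in the same fit and passed for 227 genes (1.67% of those tested), 58 in the positive direction (0.427%) and 169 in the negative (1.25%). That count was 402 without M8, and 144, 86, 94, 128, 71, 93, 110 and 70 without M1, M6, M7, M9, M10, M12, M13 and M15.

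ChREBP and its targets were lower in LbNOX livers after ethanol. The list of these genes, like the other lists, was chosen with earlier results of these data known, so its counts are a description. Of 18 members tested, 16 were called lower and 0 higher, with a median log2 difference of -1.92, against 3.82% called lower and a median of 0.0036 over all genes; after water the median was 0.10 and 0 were called. In 17 of the 18 every LbNOX ethanol library lay below every luciferase ethanol library, against 15.4% of all genes. The difference between the construct effects was called for 9 members, all in the negative direction, against 1.25% of all genes. The count of 16 was 7 without M10 and 8 without M15, and the median ranged from -2.05 without M14 to -1.52 without M15.

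Pklr, the liver isoform of pyruvate kinase and the last step of glycolysis, is the textbook ChREBP target, so its promoter is shown. The stretch covers the 250 bases before a RefSeq start site (GRCm38.p6, chr3:89136373-89136622, plus strand), and capitals mark the match to the carbohydrate response element, at -170 to -154 counted from the start site, with -1 the base just before it.
Pklr: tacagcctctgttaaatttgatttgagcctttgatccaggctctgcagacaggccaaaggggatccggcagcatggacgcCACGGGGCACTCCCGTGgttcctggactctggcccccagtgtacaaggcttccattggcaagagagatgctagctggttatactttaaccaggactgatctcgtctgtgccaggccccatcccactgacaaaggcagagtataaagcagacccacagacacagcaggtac
The element was searched on both strands; 39 of 32851 RefSeq promoter windows of 300 bases hold it (0.119%). Pklr stood at 16745, 8034 and 11335 normalized counts in the luciferase ethanol libraries and at 2672, 2990 and 2016 in the LbNOX ethanol libraries. The groups did not overlap, and the log2 difference was -2.19 (SE 0.46, adjusted p = 0.0129). The call ended without M10 or M15 (adjusted p up to 0.0668). After water Pklr was level between the constructs (-0.03), and the difference between the effects did not pass (-2.16, adjusted p = 0.087).

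The E-box CACGTG, the core that ChREBP shares with other factors of its family, was found in 7.15% of all windows and in windows of 4 members of the list that were called lower. They are shown in capitals with up to 12 bases on either side. A match is a description of the letters and not of binding. The windows lie at chr7:68749414-68749443 on the minus strand for Arrdc4, chr7:45615523-45615552 on the minus strand for Fgf21, chr5:30921476-30921505 on the plus strand for Khk and chr5:135089780-135089809 on the plus strand for Mlxipl (GRCm38.p6, RefSeq).
Arrdc4: aaaggtcctgtgCACGTGcactatggtgtc
Fgf21: gagtggggagggCACGTGggcgggcctgtc
Khk: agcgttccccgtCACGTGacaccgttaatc
Mlxipl: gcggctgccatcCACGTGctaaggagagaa
The table held a window for 14 of 18 genes of the ChREBP list, 409 of 518 genes called lower (79%) and 234 of 304 called higher (77%), under 80% of each, so shares per gene set were not computed. Other members of the list that were called lower, among them Acacb, Dak, G6pc, Pklr, Pnpla3, Rgs16 and Slc2a2, had windows without an E-box. The windows of Txnip and Gckr, which did not pass, held none either.

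Mlxipl, the ChREBP gene, had 6272, 5075 and 6400 normalized counts in luciferase and 2761, 3527 and 1665 in LbNOX livers after ethanol. The LbNOX values were all below, with a log2 difference of -1.22 (SE 0.31, adjusted p = 0.0327). Its call was among the less secure: it ended without M10, M11, M12, M13 or M15, at an adjusted p up to 0.151. Klf10, a zinc-finger repressor induced by sugar, stood at 3637, 2025 and 2989 against 742, 742 and 429 (-2.18, SE 0.28, adjusted p = 0.00066). Arrdc4, an arrestin-like inhibitor of glucose uptake, stood at 675, 320 and 570 against 166, 145 and 85.8 (-1.96, SE 0.30, adjusted p = 0.00182). Both were lower in every LbNOX library and stayed past the threshold in each of the 15 fits without 1 library, as did Tm6sf2, a gene of lipoprotein export (-1.01, adjusted p = 0.00332). Txnip, the better-known relative of Arrdc4, also had separate groups (3017, 3089 and 3793 against 1717, 2023 and 1285) but missed the threshold (-0.99, SE 0.30, adjusted p = 0.0701). The other member that did not pass was Gckr, named after its values were seen: it was listed at 0 in M10, M14 and M15 and at 61.8, 42.4 and 37.4 in M11, M12 and M13, so its value is not interpretable as a level.

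Fructose and glucose handling enzymes on the list followed. Dak (now Tkfc), the triose kinase of fructose metabolism, had 31187, 25094 and 33088 normalized counts in luciferase and 7880, 12477 and 5199 in LbNOX livers after ethanol (-1.89, SE 0.33, adjusted p = 0.0052). Khk, the fructokinase that opens the pathway, had 3877, 3946 and 4408 against 1139, 2096 and 848 (-1.69, adjusted p = 0.021). Both enzymes thus had no overlap between the groups, with M15 the lowest LbNOX library each time. In contrast, Gyk (now Gk), glycerol kinase, was higher in LbNOX, at 4641, 4408 and 3987 against 1710, 2567 and 1953 (1.08, SE 0.15, adjusted p = 0.00102); its means after water were 4508 ± 366 in luciferase (SD, n = 5) and 4475 ± 447 in LbNOX (SD, n = 4). Of 13 genes of fructose, sorbitol and glycerol entry, 3 were lower and 1 higher, against 3.82% and 2.24% of all genes, with a median of 0.39 (0.11 after water, and 0.11 without M10). The call of Khk ended without M10, M12, M13 or M15 (adjusted p up to 0.104), and 1 lower member was left without M10 or M15.

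G6pc, which encodes the enzyme that frees glucose for release from the liver and is also a ChREBP target, had 54947, 26516 and 32209 normalized counts in luciferase and 3859, 6436 and 2930 in LbNOX livers after ethanol. That is a log2 difference of -3.11 (SE 0.52, adjusted p = 0.0036) with widely separate groups. Among the 20 tested genes of gluconeogenesis and amino acid catabolism, G6pc and Tha1, a threonine aldolase, were the 2 called lower, against 3.82% of all genes, 0 were higher, and the median was -0.45 (0.19 after water, and -0.23 without M11). Tha1 had 953, 538 and 717 against 65, 101 and 49.6 (-3.36, SE 0.33, adjusted p = 1e-04). Both passed with every single library left out. The count was 4 without M3, alone or with M8, and 5 when only the 6 ethanol libraries were fitted.

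Glucose transporters did not share a direction. Of 8 tested, Slc2a4, the insulin-responsive transporter of muscle and fat, and Slc2a2, the main transporter of hepatocytes, were lower and Slc2a1, the widely expressed one, was higher; the median was -0.26 (0.24 after water, -0.02 without M10 and -0.42 without M11). Slc2a4 had 1663, 962 and 1421 normalized counts against 116, 199 and 196 (-2.98, SE 0.55, adjusted p = 0.00648). Slc2a2 had 11503, 8972 and 9640 against 5406, 6199 and 4558 (-0.90, SE 0.19, adjusted p = 0.0128); its call ended without M10 or M15 (adjusted p up to 0.0704). Slc2a1 had 123, 324 and 186 against 454, 333 and 520 (1.13, adjusted p = 0.0471), and 9 of the 15 omissions ended its call, M10, M12, M13 and M15 among them (adjusted p up to 0.192). In glycolysis, 4 of 22 genes were lower and 0 higher, against 3.82% and 2.24% of all genes, with a median of 0.08 that was -0.05 without M10, 0.14 without M12 and 0.02 without M13. They were Pklr, Gpi1, glucose-6-phosphate isomerase (-1.38, adjusted p = 0.00137), Pfkfb3, which makes the activator of phosphofructokinase (-1.50, adjusted p = 0.0102), and Pfkl, the liver phosphofructokinase (-0.89, adjusted p = 0.0339); the call of Pfkl ended without M10, M11, M12, M13 or M15 (adjusted p up to 0.138) and that of Pfkfb3 without M10. The glycolysis count was 1 without M10 and 2 without M15.

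Enzymes of fatty acid synthesis were lower in LbNOX livers as well. Of 19 genes of de novo lipogenesis, 10 were called lower and 0 higher, against 3.82% of all genes called lower, with a median of -0.92 (0.04 after water). Without overlap, 13 lay below luciferase, against 15.4% of all genes; 2 of the 19 are also on the ChREBP list. The count was 4 without M10, 5 without M12, 6 without M13 and 5 without M15. The construct effects after ethanol and water differed for 5 of the 19, all in the negative direction, against 1.25% of all genes.

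Acly, ATP citrate lyase, which makes the acetyl-CoA for fat synthesis, had 34072, 15669 and 22850 normalized counts in luciferase and 4078, 4832 and 2827 in LbNOX livers after ethanol. The lowest luciferase library was above the highest LbNOX library, and the log2 difference was -2.59 (SE 0.25, adjusted p = 9.58e-05), with 0.10 after water. Elovl6, an elongase of long-chain fatty acids, had 16864, 7036 and 9724 against 2438, 2656 and 2264 (-2.10, SE 0.30, adjusted p = 0.00118). Fasn, fatty acid synthase, had 9296, 5942 and 6196 against 1515, 2611 and 873 (-2.21, SE 0.48, adjusted p = 0.0165). Srebf1, the gene of the insulin-driven lipogenic factor SREBP-1, had 5912, 2874 and 3112 against 1755, 1833 and 1508 (-1.15, adjusted p = 0.00723), and Mid1ip1, an activator of acetyl-CoA carboxylase, was at -1.99 (adjusted p = 0.0036). Acly, Elovl6, Srebf1 and Mid1ip1 passed whichever library was left out, whereas the call of Fasn ended without M10, M13 or M15 (adjusted p up to 0.0825). Scd1, the stearoyl-CoA desaturase, had the highest level of the list, 207756, 88292 and 97542 against 36282, 43921 and 42822; its groups did not overlap but the difference missed the threshold (-1.57, SE 0.56, adjusted p = 0.121). Acss2, which turns acetate into cytosolic acetyl-CoA, did not pass either (-0.51, adjusted p = 0.149).

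**Figure D2:**
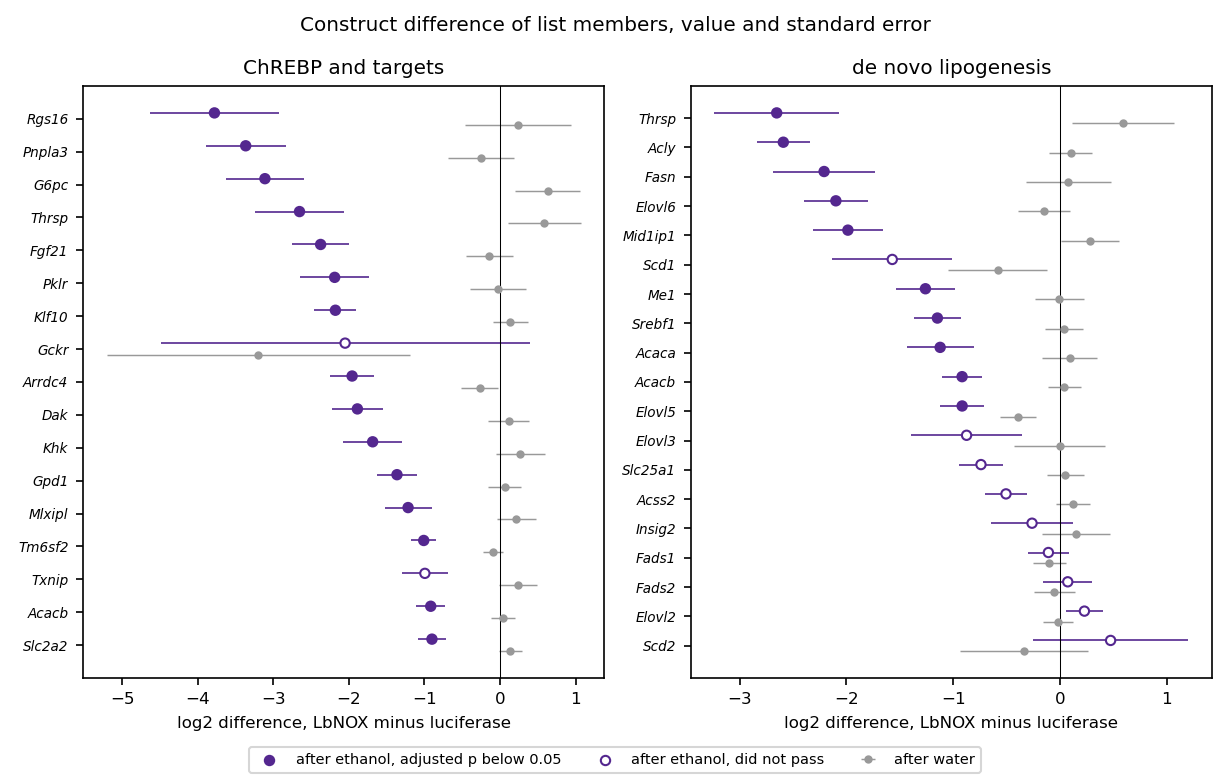
Log2 difference between LbNOX and luciferase livers with its standard error for members of the ChREBP list (left, 1 of 18 not drawn) and the de novo lipogenesis list (right), after ethanol (purple, filled where the adjusted p was below 0.05) and after water (grey). All ChREBP members drawn lie below 0 after ethanol, while most grey points lie near 0.

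Later steps of lipid storage moved less uniformly. Of 25 genes of triglyceride assembly and lipid droplets, 6 were called lower and 1 higher, against 3.82% and 2.24% of all genes, with a median of -0.31 (0.10 after water, and -0.18 without M15). Pnpla3, a lipase-like protein of lipid droplets that is low in these livers, had 49.6, 24.5 and 56.1 normalized counts against 4.15, 4.92 and 1.21 (-3.37, SE 0.53, adjusted p = 0.00254). Agpat2, an acyltransferase of triglyceride synthesis (-1.24, adjusted p = 0.00516), and Plin5, a droplet coat protein (-1.24, adjusted p = 0.0052), were lower, and Dgat2, which adds the last acyl chain, was at -1.11 (adjusted p = 0.0162). Lpin2, a phosphatidate phosphatase, was the higher member (0.97, adjusted p = 0.0146). The lower members numbered 3 without M12 or M15, and the calls of Dgat2 and Lpin2 both ended without M10 or M15, that of Dgat2 also without M12 and that of Lpin2 without M13 (adjusted p up to 0.0803). In glycogen metabolism 2 of 16 genes were lower and 1 higher, led by the glycogen-binding Stbd1 (-0.95, adjusted p = 0.00758); 1 stayed lower without M1, M2, M6, M7, M9, M10, M11, M12, M13 or M15, and 0 stayed higher without M10, M11, M12, M13 or M15. Of 15 genes of the pentose phosphate pathway and NADPH production, Rpia, ribose-5-phosphate isomerase (951, 505 and 742 against 144, 194 and 103; -2.31, SE 0.25, adjusted p = 0.00023), and Me1, malic enzyme (-1.26, adjusted p = 0.0174), were lower and 0 were higher; the call of Me1 ended without M10, M12, M13 or M15 (adjusted p up to 0.0803).

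Of 18 genes of NADH shuttles and lactate metabolism, Gpd1 and Gpd2, the cytosolic and mitochondrial enzymes of the glycerol-phosphate shuttle, were lower and 0 were higher, against 3.82% of all genes called lower; 13 of the 18 were below 0, with a median of -0.31 (0.12 after water). Gpd1 had 22402, 16289 and 17009 normalized counts against 7793, 8273 and 5648 (-1.36, SE 0.27, adjusted p = 0.00904), and Gpd2 had 3376, 2904 and 2908 against 1647, 1672 and 1510 (-0.93, SE 0.19, adjusted p = 0.0112). Both calls ended without M10 or M15 (adjusted p up to 0.0562), which leaves 0 called there, and 4 members were called without M3 and M8. Ldha, lactate dehydrogenase, had 14889, 10674 and 9433 against 10296, 7775 and 8540 (-0.38, SE 0.18, adjusted p = 0.242).

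Of 16 genes of ethanol, acetaldehyde and acetate metabolism, 1 was called higher and 0 lower, against 2.24% of all genes called higher; the median was 0.11 (0.15 after water) and ranged from 0.01 without M14 to 0.23 without M11. That gene, Aldh1a7, an aldehyde dehydrogenase close to Aldh1a1, had 5387, 7269 and 6655 against 10564, 10494 and 9476 (0.67, adjusted p = 0.0227), a call that ended without M10, M12, M13, M14 or M15 (adjusted p up to 0.106). The main enzymes of ethanol breakdown did not pass: Adh1, alcohol dehydrogenase, had 26940, 24405 and 21533 against 23478, 26065 and 20851 (-0.05, SE 0.23, adjusted p = 0.926), Aldh2, mitochondrial aldehyde dehydrogenase, was at -0.27 (SE 0.20, adjusted p = 0.465), and Cyp2e1, a cytochrome that also oxidises ethanol, at -0.19 (SE 0.49, adjusted p = 0.862). Among 29 genes of NAD synthesis, salvage and use, limma called 0, edgeR 0 and DESeq2 3, with 9 at an unadjusted p below 0.05. The smallest adjusted p there was that of Slc25a51, the mitochondrial NAD+ carrier (-0.97, adjusted p = 0.0607). Nampt, the main enzyme of NAD+ salvage, had 1489, 1689 and 1901 against 1706, 1771 and 1605 (0.01, SE 0.14, adjusted p = 0.987).

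**Figure D3:**
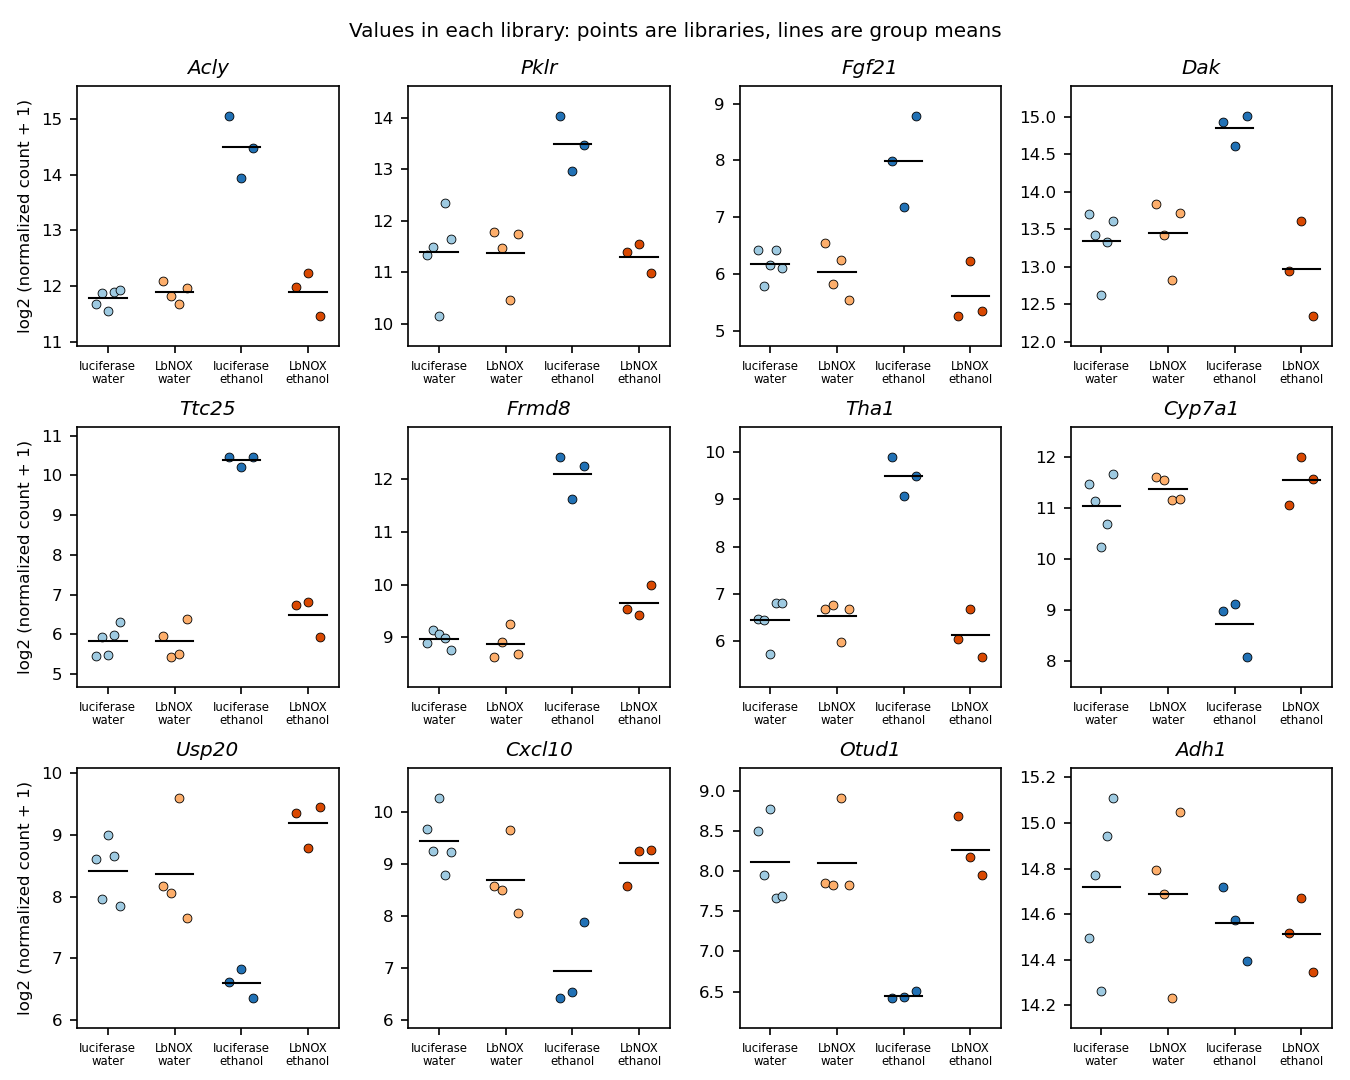
Log2 of the normalized count plus 1 in each library (points) with the group mean (line) for 12 genes and the 4 groups of the series. In Acly, Pklr, Fgf21, Dak, Ttc25, Frmd8 and Tha1 the luciferase ethanol libraries lie above the LbNOX ethanol libraries, in Cyp7a1, Usp20, Cxcl10 and Otud1 below them, and in Adh1 the groups overlap.

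The smallest p-values did not all belong to genes of sugar and fat. Ttc25, a gene of motile cilia that docks dynein arms, had the smallest: 1411, 1190 and 1400 normalized counts in luciferase against 107, 111 and 60.5 in LbNOX livers after ethanol (-3.88, SE 0.30, adjusted p = 3.44e-05). Ttc25 lies on chromosome 11 (GRCm38, 100545607 to 100572568, plus strand) next to Acly (100476353 to 100528000, minus strand), and 17606 bases separate the annotated genes. Frmd8, a partner of the iRhom proteins at the cell surface, had 5511, 3159 and 4887 against 739, 681 and 1022 (-2.46, SE 0.22, adjusted p = 5.3e-05). Tbc1d31, a centrosomal protein, had 977, 896 and 1492 against 152, 206 and 214 (-2.53, SE 0.23, adjusted p = 5.3e-05). In all 3, the gap between the groups was larger on the log2 scale than the range within either group. Fgfrl1, an FGF receptor without a kinase domain, had a smaller difference with a narrow error (-1.72, SE 0.17, adjusted p = 1e-04). Each of these kept its call whichever library was left out, with Frmd8 on chromosome 19 (5849702 to 5875274) and Tbc1d31 on chromosome 15 (57912199 to 57970067).

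The largest differences among genes with a mean of 100 or more came from genes that were almost silent in LbNOX livers. Adcy10, the bicarbonate-sensitive adenylyl cyclase, had 710, 289 and 580 normalized counts in luciferase and 2.77, 0 and 0 in LbNOX livers after ethanol. These are 1300 reads against 2, a ratio of 671 (exact 95% interval 185 to 5550, counting error only); the fitted difference of -8.31 depends on the pseudocount. Sorcs2, a sorting receptor of neurons, had 418, 308 and 875 against 1.38, 8.85 and 2.42 (-6.81, SE 0.59, adjusted p = 5.3e-05), and Col9a3, a cartilage collagen chain, had 237, 255 and 462 against 2.77, 3.93 and 2.42 (-6.25, SE 0.63, adjusted p = 0.000124). After water the 3 genes were low with both constructs: Adcy10 at 4.40 ± 3.18 (SD, n = 5) in luciferase, Sorcs2 at 9.71 ± 3.86 and Col9a3 at 3.10 ± 2.41. The log2 difference of LbNOX minus luciferase after water was -1.03 for Adcy10, -1.22 for Sorcs2 and 0.23 for Col9a3. Nfe2l3, a transcription factor of the CNC family (-5.07), Hhipl1 (-3.93), Plcxd1 (-3.19) and Cyp2c53-ps, a cytochrome pseudogene that may share reads with its relatives (-6.50), were lower too, each with an adjusted p of at most 0.00118. Slc34a2, a phosphate transporter (1709, 208 and 512 against 49.8, 41.3 and 36.3; -3.72, adjusted p = 0.00715), ranged widely within luciferase, yet no luciferase value came near the LbNOX values. Rgs16, an inhibitor of G-protein signalling and a ChREBP target, had 6918, 5678 and 6694 against 541, 1243 and 150 (-3.78, SE 0.86, adjusted p = 0.0224), and Hcn3, an ion channel, was at -2.72 (adjusted p = 0.0118). The call of Rgs16 ended without M10, M12, M13 or M15 and that of Hcn3 without M10 or M15 (adjusted p up to 0.0938). On chromosome 3 (GRCm38), Hcn3 (89146074 to 89160196, minus strand) overlaps the end of Pklr (89136142 to 89146784, plus strand). Whether Hcn3 and Pklr share reads was not tested. Adpgk, a sugar kinase that uses ADP, was listed at 0 in M13 and M14 but at 133 in M15, against 196, 230 and 160. It is the 1 called gene among 86 that were listed at 0 in some library although their median over the remaining libraries reached 100, and edgeR did not call it (adjusted p = 0.307).

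Hormone, stress and rhythm genes contained further lower members. Of 24 secreted liver hormones, 4 were lower and 0 higher, against 3.82% of all genes called lower, with a median of -0.21 (-0.04 after water, -0.39 without M12 and -0.33 without M14); 2 stayed called without M10, M13 or M15. Fgf21, a hormone that limits sugar and alcohol intake, had 254, 145 and 439 normalized counts against 37.4, 73.8 and 39.9 (-2.37, SE 0.38, adjusted p = 0.00296), and Inhba, which encodes the activin A subunit, had 1680, 668 and 966 against 252, 209 and 154 (-2.35, SE 0.34, adjusted p = 0.00137). Gdf15, a hormone of cellular stress, went the other way without passing (218, 342 and 369 against 540, 445 and 342; 0.53, adjusted p = 0.196). Of 25 genes of the integrated stress response, 4 were lower and 1 higher, against 3.82% and 2.24% of all genes (median -0.51, -0.06 after water, and -0.30 without M12), the lower ones including Trib3, a pseudokinase that blocks Akt (-1.75, adjusted p = 0.00136), Atf5 (-1.18, adjusted p = 0.00567) and Fgf21. The higher one was Atf3, a stress-induced repressor listed at 0 in M10 and M11, 23.7 in M12 and 65.3 to 120 in LbNOX (adjusted p = 0.0476); 12 of 15 omissions ended its call, at an adjusted p up to 0.179.

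Of 20 clock genes, 3 were lower and 0 higher, against 3.82% of all genes called lower (median -0.45, 0.13 after water, -0.25 without M10 and -0.20 without M15): Hlf, a clock-output factor, had 3175, 2458 and 2769 against 1100, 1195 and 873 (-1.41, SE 0.22, adjusted p = 0.00195), and Bhlhe40, a repressor in the clock loop, was at -1.01 (adjusted p = 0.0436). Of 19 glucocorticoid-responsive genes, 3 were lower and 0 higher, against the same share (median -0.44, 0.14 after water, and -0.28 without M11), among them the phosphatase gene Dusp1 (1955, 1832 and 2048 against 804, 763 and 259; adjusted p = 0.0234) and Tsc22d3, the glucocorticoid-induced zipper protein (-1.09, adjusted p = 0.0356). The calls of Dusp1 and Tsc22d3 ended without M10, M12 or M15, and that of Tsc22d3 also without M11 or M13 (adjusted p up to 0.132); 11 omissions ended that of Bhlhe40 (adjusted p up to 0.169). Clock members called numbered 1 without M10, M12 or M15, and glucocorticoid members 1 without M10, M11 or M12 and 0 without M15. Rrm2, a subunit of ribonucleotide reductase, was the 1 member called, lower, among 23 proliferation genes (5099, 4716 and 5800 against 2060, 2456 and 1733; -1.33, adjusted p = 0.0036).

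Among genes higher in LbNOX livers, Cyp7a1, which catalyses the first and limiting step from cholesterol to bile acids, combined a large difference with a narrow error. It was at 505, 552 and 269 normalized counts in luciferase and at 2142, 4108 and 3027 in LbNOX livers after ethanol (2.82, SE 0.35, adjusted p = 0.000629), with 0.33 after water. Cyp7a1 lies on chromosome 4 (GRCm38, 6265612 to 6275633, minus strand). It was the 1 gene called of 21 in bile acid synthesis and transport, against 2.24% of all genes called higher. The list did not share a direction, with 10 of the 21 members above 0 and 11 below. Abcb11, the canalicular bile salt pump (0.54, adjusted p = 0.123), and Abcc2, an exporter of conjugates (0.65, adjusted p = 0.139), did not pass.

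Usp20, a deubiquitinase, had 96.8, 112 and 81 normalized counts against 659, 441 and 703 (2.61, SE 0.41, adjusted p = 0.00258). Otud1, another deubiquitinase, had 84.7, 85.1 and 89.7 against 410, 288 and 247 (1.82, adjusted p = 0.00601). Cyp7a1, Usp20 and Otud1 were called whichever library was left out. Of the called genes whose mean reached 100, those with the largest differences upward were Disp2 (33.9, 29.2 and 73.5 against 555, 483 and 982; 3.91, SE 0.87, adjusted p = 0.0198) and Map2, which stabilises microtubules in neurons (7.26, 14 and 29.9 against 188, 88.5 and 429; 3.63, SE 0.85, adjusted p = 0.0236). Both had separate groups, but their calls ended without M10, M11, M13 or M15 (adjusted p up to 0.11), and Disp2 already varied widely among LbNOX water libraries (505 ± 636, SD, n = 4). The acyl-CoA thioesterases Acot2 (1.52, adjusted p = 0.0198) and Acot3 (1.77, adjusted p = 0.0447), neighbours of close sequence that may share reads, were higher. Among 33 genes of fatty acid oxidation and ketogenesis, 13 were above 0 and 20 below. Acot2 and Acot3 were the 2 called, against 2.24% of all genes called higher. The count was 0 without M10, M12 or M13 and 1 without M1, M6, M7, M8, M14 or M15, with an adjusted p up to 0.148.

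**Figure D4:**
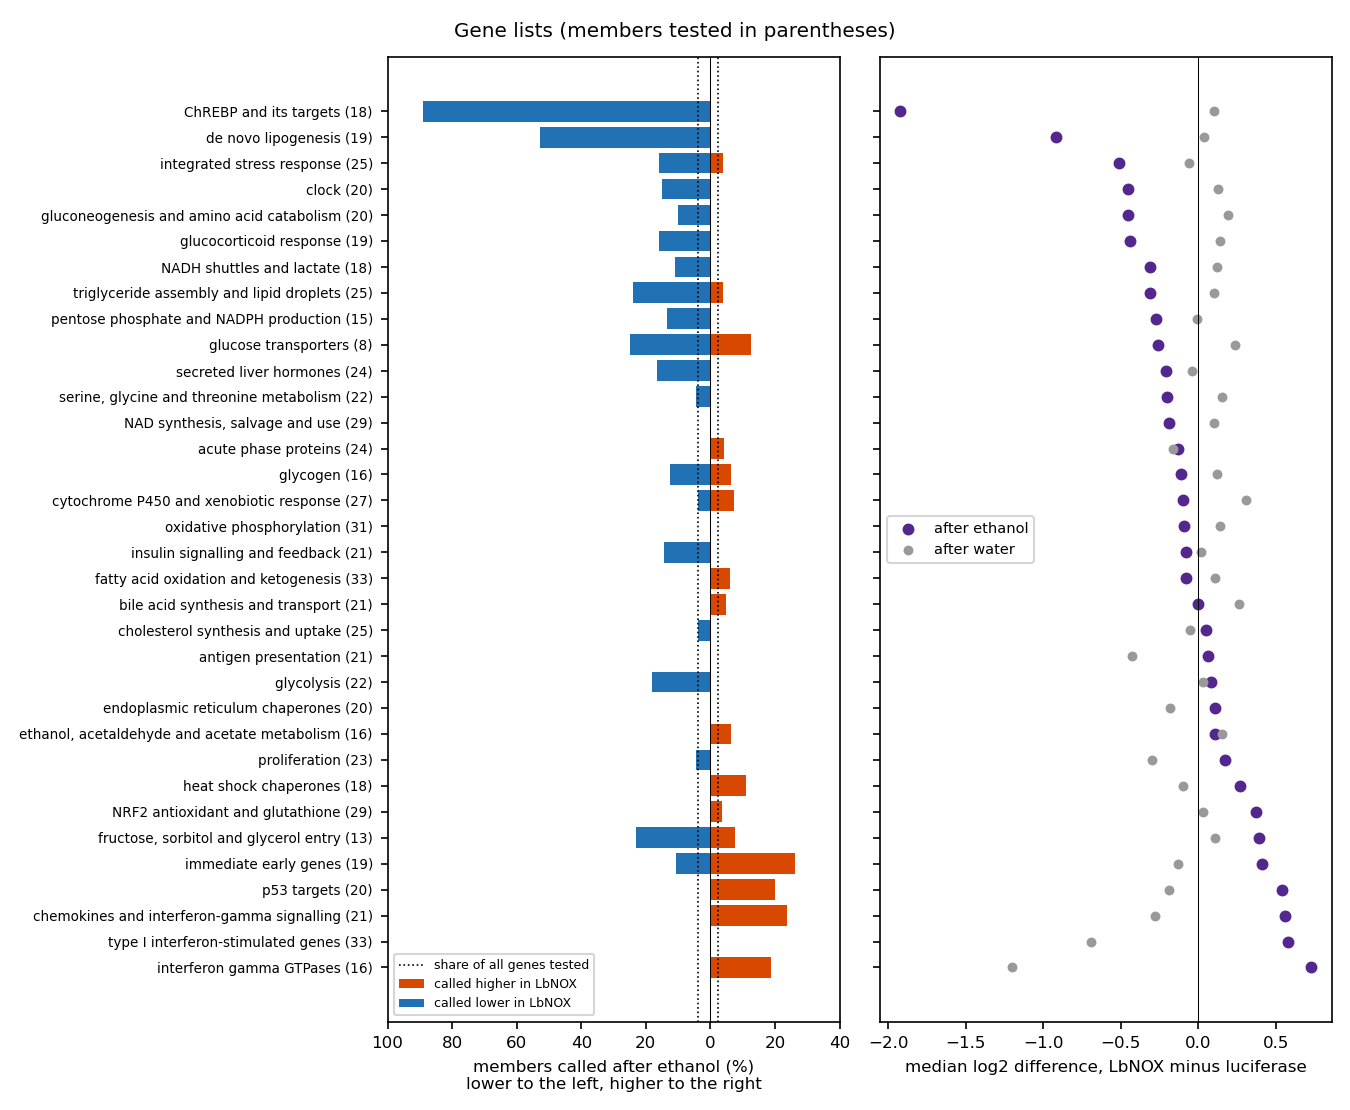
Left, the share of tested members of each of 34 response lists called lower (blue, leftward) or higher (orange, rightward) in LbNOX livers after ethanol, with dotted lines at the shares of all genes tested (3.82% lower and 2.24% higher); right, the median log2 difference of each list after ethanol (purple) and after water (grey). The ChREBP and lipogenesis lists lie farthest to the left, and the interferon lists have medians above 0 after ethanol and below 0 after water.

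Some interferon-inducible genes and chemokines were higher in LbNOX than in luciferase livers after ethanol: 3 of 16 interferon gamma GTPases, 5 of 21 chemokines and interferon-gamma signalling genes and 0 of 33 type I interferon-stimulated genes were called. Of the 16 tested GTPases induced by interferon gamma, 3 were called higher and 0 lower, against 2.24% of all genes, with a median of 0.73 after ethanol (0.45 without M10 and 1.13 without M12) and -1.20 after water; 0 were called after water by limma. The difference between the construct effects was called for 7 of the 16, all in the positive direction, against 0.427% of all genes. Irgm2 and Tgtp2, GTPases that attack the vacuoles of intracellular parasites, have the core of the interferon-stimulated response element in their RefSeq promoter windows, written as a pair of GAAA runs with any 2 bases between them; 3.44% of all windows hold it (both strands searched). RefSeq windows were matched for 9 of the 16, all 9 genes hold it, and 7 of those 9 were not called. The matches are shown in capitals (GRCm38.p6, chr11:58214901-58214934 on the plus strand for Irgm2 and chr11:49064261-49064294 on the minus strand for Tgtp2).
Irgm2: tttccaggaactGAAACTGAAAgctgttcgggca
Tgtp2: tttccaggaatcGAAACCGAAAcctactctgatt
Irgm2 had 496, 823 and 1188 normalized counts against 1522, 2515 and 2158 (1.36, SE 0.32, adjusted p = 0.0228). Tgtp2 had 12.1, 14 and 26.2 against 58.1, 53.1 and 93.1 (1.94, SE 0.43, adjusted p = 0.0185); it shares most of its sequence with Tgtp1 (2.02, adjusted p = 0.0664), so reads may be divided between them. Gbp11, a guanylate-binding family member, had 15.7, 37.3 and 37.4 against 87.2, 149 and 87.1 (1.86, SE 0.35, adjusted p = 0.00688) and was the 1 of the 3 that passed with any library left out. M10 was the lowest luciferase library in all 3, and the count was 1 without M10 or M15, 2 without M11 or M14, and 5 without M8, alone or with M3. The calls of Tgtp2 and Irgm2 ended without M10 or M15 (adjusted p up to 0.103).

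Of 21 chemokines and interferon-gamma signalling genes, 5 were higher and 0 lower, against 2.24% of all genes called higher (median 0.56, -0.28 after water). Irf1, a transcription factor induced by interferon gamma, had 442, 549 and 567 normalized counts against 923, 1136 and 1141 (1.04, SE 0.20, adjusted p = 0.00837). Cxcl10, a chemokine that attracts T cells, had 84.7, 92.1 and 233 against 378, 602 and 613 (2.08, SE 0.45, adjusted p = 0.0159). Cd274, the ligand PD-L1, was at 1.34 (adjusted p = 0.0392), and the monocyte attractants Ccl2 (2.01, adjusted p = 0.0476) and Ccl7 (2.07, adjusted p = 0.0429) were low in all 6 libraries, with Ccl7 at 1.21, 1.17 and 2.49 against 12.5, 14.8 and 4.84. Irf1 passed with any library left out; the count of 5 was 1 without M10 or M11, 2 without M1, M6, M7, M12, M13, M14 or M15, and 3 without M2 or M9, and Cxcl10 lost its call without M10, M11 or M15 (adjusted p up to 0.0758). Of 33 type I interferon-stimulated genes, limma called 0, edgeR 0 and DESeq2 3, with 7 at an unadjusted p below 0.05; the median was 0.58 (-0.69 after water, and 0.30 without M10) and 12 were above luciferase without overlap, against 14.1% of all genes. The smallest adjusted p values were those of Stat2 (0.64, adjusted p = 0.0561) and Parp14 (0.97, adjusted p = 0.0589).

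**Figure D5:**
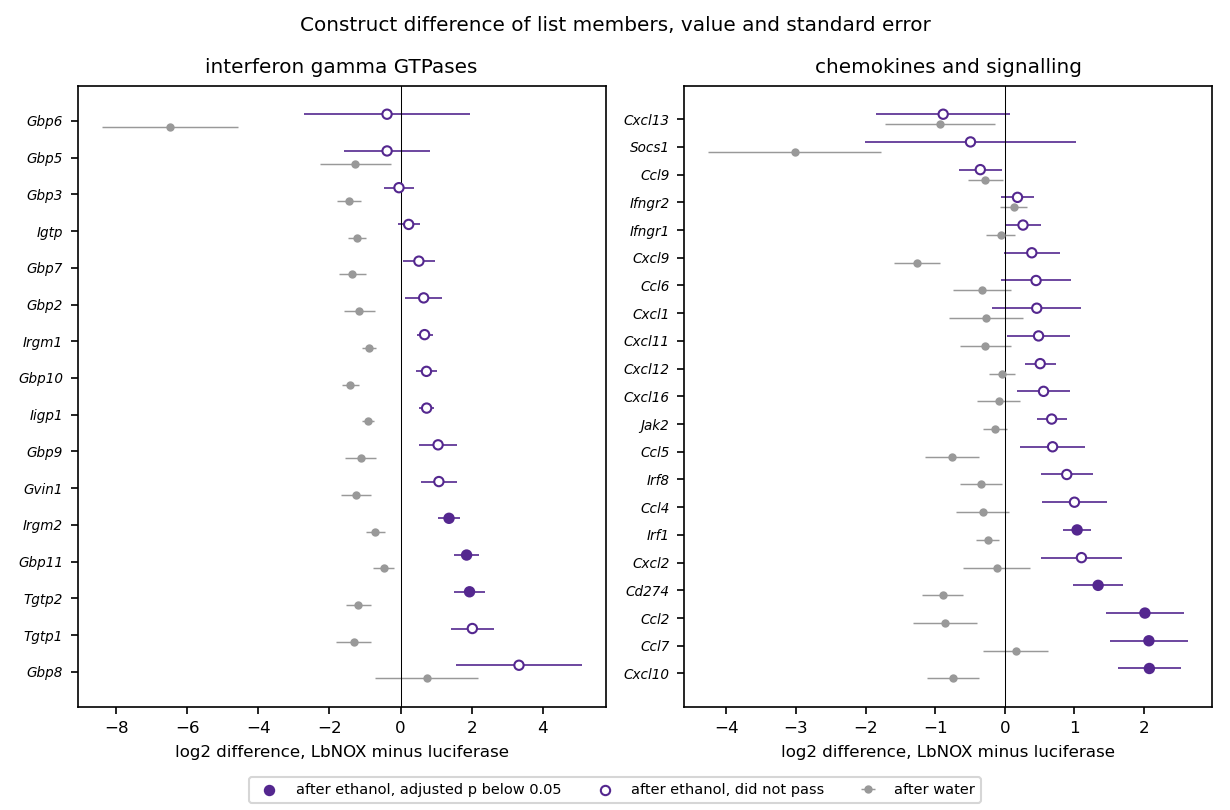
Log2 difference between LbNOX and luciferase livers with its standard error for every member tested of the interferon gamma GTPases (left) and of chemokines and interferon-gamma signalling genes (right), after ethanol (purple, filled where the adjusted p was below 0.05) and after water (grey). Most GTPases lie above 0 after ethanol and below 0 after water.

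Markers of immune cells were read beside these genes; in bulk RNA, fewer cells of a type and less RNA per cell cannot be told apart. Summed markers of Kupffer cells and macrophages were 1679 to 2201 normalized counts in luciferase and 1979 to 3426 in LbNOX livers after ethanol, with a positive log2 difference in 11 of 11 tested members (median 0.63, and 0.24 without M15) and Timd4 at 0 in some of the 6 libraries. Those of T and NK cells were 123 to 188 and 152 to 325, with 10 of 12 tested members above 0 (median 0.40, 0.20 without M10, 0.65 without M13 and 0.14 without M15) and Nkg7, Ncr1, Gzma and Trac at 0 in some libraries. Neutrophil markers ranged from 702 to 7557 and from 1887 to 5146, with 8 of 8 tested members above 0 (median 0.65, 1.07 without M11, 0.28 without M13 and 1.08 without M14) and Ngp and Il1r2 at 0 in some libraries. Among the 6 libraries the highest sums of Kupffer and T cell markers were both in M15. That library also had the highest sums of endothelial (4948), stellate cell (4447), cholangiocyte (2076) and pancreas markers (576). In the Kupffer, T and NK cell and neutrophil lists limma, edgeR and DESeq2 called 0 members, with 1, 2 and 1 at an unadjusted p below 0.05. Markers of B and plasma cells went the other way, with 5 of 5 tested members below 0 (median -0.50, -0.27 without M10 and -1.12 without M11). Endothelial markers, which are not immune, had 8 of 12 tested members above 0 (median 0.40, and 0.17 without M15). In both of these lists the 3 tools called 0 members as well. The part of all these markers in the interferon and chemokine values was not tested.

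Other stress lists had a few higher members. Of 20 p53 targets, 4 were higher and 0 lower, against 2.24% of all genes called higher (median 0.54, -0.19 after water), led by Fas, the death receptor (226, 318 and 263 against 527, 406 and 495; 0.83, adjusted p = 0.00899), whose call ended without M10 (adjusted p = 0.051); the count was 0 without M10, 1 without M12, M13 or M15, and 2 without M6 or M7. Of 19 immediate early genes, 5 were higher and 2 lower, against 2.24% and 3.82% of all genes (median 0.41, -0.13 after water, -0.09 without M12 and 0.24 without M13). The higher ones numbered 1 without M10, M12 or M15 and 0 without M13, and the lower ones 1 without M10, M12 or M15. Jun, a subunit of AP-1 (435, 700 and 492 against 1328, 1188 and 1021; 1.14, adjusted p = 0.013), Ier5 (1.34, adjusted p = 0.0122) and Klf6 (269, 373 and 345 against 2084, 845 and 1330; 2.02, adjusted p = 0.0202) were higher. Maff, a small Maf factor, was lower (413, 278 and 292 against 80.3, 36.4 and 54.4; -2.55, SE 0.31, adjusted p = 0.000401), as was Dusp1. Maff kept its call throughout, whereas those of Jun, Ier5 and Klf6 each ended without M12 or M13 (adjusted p up to 0.0846). Hspb1, a small heat shock protein (1.06, adjusted p = 0.031), Hmox1, heme oxygenase 1 (1.40, adjusted p = 0.0331), and Saa3, an acute phase protein (297, 678 and 636 against 3177, 1289 and 1799; 1.95, adjusted p = 0.02), were higher, and without M13 or M15 none of their calls held (adjusted p up to 0.127). Their lists held few calls, against 2.24% of all genes called higher. Of 18 heat shock chaperones, 2 were called higher (median 0.27), with 0 left without M11, M12 or M13 and 1 without M2, M6, M7, M10 or M15. Of 29 NRF2 antioxidant and glutathione genes 1 was called (median 0.37, and 0.14 without M10). Of 24 acute phase proteins 1 was called, 14 were below 0, and the median of -0.13 changed sign with the library left out (-0.30 without M10 to 0.31 without M11).

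Cytosolic ribosomal protein genes, used as a sign of library quality, had lower sums in LbNOX: the sum was 126090 to 132173 normalized counts in luciferase and 96892 to 110343 in LbNOX livers after ethanol, lowest in M15. Of 30 members, 25 had all LbNOX values below, against 15.4% of all genes, and 1 was called lower, against 3.82%: Rpl13 (-0.49, adjusted p = 0.0484), which lost its call in 10 of the 15 omissions, M10 to M15 among them. The median was -0.29 (-0.05 after water). Transcripts of the mitochondrial genome summed to 1052127 to 1303141 normalized counts in luciferase and 780417 to 1076224 in LbNOX, lowest in M15, and the ranges overlapped. All 13 were below 0 and 3 had no overlap, with a median of -0.30 (-0.03 after water, and -0.18 without M15). limma, edgeR and DESeq2 called 0 of them, with 1 at an unadjusted p below 0.05. Of the 3 fat markers tested, limma and edgeR called 0 and DESeq2 1, with 3 at an unadjusted p below 0.05. The 5 fat markers in the table summed to 264 to 497 normalized counts in luciferase and 628 to 1517 in LbNOX, almost wholly through Fabp4 (183, 424 and 409 against 1511, 616 and 643; 1.41, adjusted p = 0.126), whereas the defining adipocyte genes lay below luciferase without overlap: Adipoq at 16.9, 7 and 15 against 1.38, 3.93 and 0 (-2.54, adjusted p = 0.162) and Cfd at 55.7, 56 and 48.6 against 0, 5.9 and 15.7 (-3.48, adjusted p = 0.145). Pericentral and periportal hepatocyte sums overlapped. Of these 20 zonation markers 1 was called, against 2.24% of all genes called higher. It was Lgr5, a receptor of pericentral hepatocytes (23, 24.5 and 26.2 against 88.6, 72.8 and 45.9, log2 difference 1.41, adjusted p = 0.0213). That call ended without M10, M12, M13 or M14 (adjusted p up to 0.0894). The part of these lists in the results above was not tested.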

How the data were processed

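Liver RNA of 15 libraries was sequenced from mRNA libraries, per the labels' protocols. The deposited table holds 1 signal value per gene and library, gene counts divided by a size factor for each library, as the values show. Tools listed in the submitters' processing notes are DESeq2 1.30.1 and Salmon 1.5.1, with mm10 as build and no roles given. Columns were assigned by the group names in the header. Values were tested as log2(value + 1) in limma 3.58.1 under R 4.3.3, with robust variances that follow the mean level, all 4 groups in 1 fit and Benjamini-Hochberg adjustment over 13570 genes; log2 differences are on that scale and understate changes of low genes. Every adjusted p in the text is from this fit unless another tool is named. Genes needed a value of 10 in at least 3 columns; 23 names turned into dates are not named. Whole reads were recovered from the steps of the values (100% of values within 0.001 of a whole read in each library) and tested with edgeR 4.0.16 and DESeq2 1.42.0 as alternatives. The scripts were tested on simulated data. Members and gene lists were chosen with earlier results of these data known; 12 list members were matched by RefSeq synonyms. The text names, of called genes whose mean over the ethanol libraries reached 100, the 15 that rose most and the 15 that fell most, then the 10 smallest p-values, up to 5 members a list by p, and a fixed set of metabolic genes. Other alternatives were pseudocounts, filters, quantile normalization, the 6 ethanol libraries alone and each library left out; fits without M3 and M8 and without genes with an isolated 0 were added after seeing the data. Counting intervals cover counting error only. Some genes that this rule would name are not reported here; they remain in the counts and medians.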

Additional observations from a re-analysis of the deposited data

Results flagged for a closer look

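For 22 named genes the difference between LbNOX and luciferase livers after ethanol itself differed from that after water, by the interaction term of the limma fit (adjusted p from 0.00103 to 0.0486). The values below are the log2 difference after ethanol minus that after water.

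Among genes of sugar and fat metabolism, the value was -3.74 for G6pc, -3.52 for Slc2a4, -3.44 for Tha1, -2.69 for Acly, -2.23 for Fgf21 and -1.18 for Srebf1. In these genes the construct difference after water lay between -0.14 (Fgf21) and 0.63 (G6pc).

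Among genes close to silent without ethanol, it was -7.27 for Adcy10, -6.49 for Col9a3, -5.59 for Sorcs2, -5.31 for Nfe2l3, -5.21 for Cyp2c53-ps and -4.42 for Hhipl1; these values depend on the pseudocount. It was -3.87 for Ttc25, -3.33 for Plcxd1, -2.39 for Tbc1d31, -2.35 for Frmd8 and -1.88 for Fgfrl1.

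In the positive direction it was 1.83 for Otud1, 2.49 for Cyp7a1, 2.65 for Usp20, 2.82 for Cxcl10 and 3.26 for BC023105. Of these, Cxcl10 (-0.75) and BC023105 (-1) had a negative construct difference after water.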

How the results depend on the processing

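No named gene changed sign in an alternative where it was called there or in the main fit. Sign changes of genes called in neither were not counted. Of the list medians given above, those of glycolysis, immediate early genes and acute phase proteins changed sign without 1 library. The count of called genes after ethanol (822) was 1349 by DESeq2 and 316 (without M10) to 940 (without M3) with 1 library left out; genes higher (304) numbered 580 by DESeq2, 472 without M3 and M8, and 92 (without M15) to 347 (without M8); genes lower (518) numbered 211 (without M10) to 594 (without M3). After water (0), DESeq2 called 18, the fit without M3 and M8 called 2, and leaving out 1 library gave 0 to 1. The difference of the construct effects (227) was called for 633 by DESeq2, 151 without a mean-variance trend, 382 without M3 and M8, and 70 (without M15) to 402 (without M8). The cause was not tested. edgeR gave 755, 0 and 220. Of 821 called genes, 737 were also called by edgeR and 817 by DESeq2; of 102 named genes called, 44 were called in all 15 fits without 1 library. No paired analysis was possible because the table's columns carry no replicate number. Sets of promoters were not compared, since under 80% of each set had a sequence. With 3 libraries a group, single libraries decide many calls.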

Other observations

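Ttc25 and Acly are neighbours on chromosome 11, and 10 tested genes lie within 100 kb of Acly. The other 8 were not called after ethanol: their log2 differences ran from -1.25 (Zfp385c) to 0.61 (Fkbp10), and the lowest adjusted p in limma was 0.207 (Jup).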
